A study of Homo sapiens with 16 samples.

Results

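The 55 genes described here encode the machinery of the G2 phase and of mitosis, and each was found by its symbol in the gene count table of the myeloma lines MM1S and MM1R. They are 55 of the 23354 genes of that table. All 55 passed the filter on low counts and were among the 14215 genes tested. They were grouped by role into CDK1 with its cyclins and activating phosphatases (6 genes), mitotic kinases (3), the spindle assembly checkpoint (5), the chromosomal passenger complex (4), the centromere and kinetochore (7), mitotic kinesins (7), spindle and microtubule proteins (7), anaphase promotion and chromatid separation (4), cytokinesis (3), condensin and chromosome structure (7) and transcription factors (2). Members are picked by symbol and not by a measured value, but the list and the roles were chosen with earlier results of these data known. Counts of members are therefore descriptions.

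Cells enter mitosis when CDK1, bound to cyclin A or cyclin B and freed of its inhibitory phosphates by CDC25 phosphatases, becomes active. Chromosomes then condense, kinetochores attach them to the spindle, and a checkpoint holds anaphase back until every chromosome is attached, after which CDC20 and the anaphase-promoting complex release the sister chromatids. The genes for these proteins are transcribed mainly in G2 and M phase, largely through the MuvB complex with MYBL2 and FOXM1, so in dividing cells their mRNA levels go with the share of cells that cycle.

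MM1S and MM1R are human multiple myeloma lines, tumour lines of the plasma cell lineage, which are labelled glucocorticoid sensitive and glucocorticoid resistant. Each line was given vehicle (Veh), TAK-981 (TAK, an inhibitor of the SUMO-activating enzyme, at 0.1 μM), dexamethasone (Dex, a synthetic glucocorticoid, at 1 μM) or both drugs at these doses (combo), and the labels give 48 h for the treated cells. There were 2 libraries in each of the 8 groups, 16 in all, made from total RNA after Ribo-Zero depletion of ribosomal RNA. Since nothing says whether duplicates came from separate cultures, the p-values measure the spread between these libraries, which may be technical. In bulk RNA, fewer cells in G2 and mitosis and less mitotic mRNA per cell cannot be told apart.

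The 8 MM1S libraries held 15707587 to 20644510 counts and the 8 MM1R libraries 18987739 to 24796539. The lowest count of any member in any library was 33 (SPC25 in MM1S combo), so every member was measured above the counting floor in every library. The 8 plasma cell markers were present in all 16 libraries, with SDC1, the syndecan that marks plasma cells, at 510 to 955 CPM (counts per 1e+06 counts). CPM values of these cell type markers are scaled by library size only, and all other CPM values are after TMM scaling. The mature B cell markers MS4A1, PAX5 and CD22 reached at most 11 counts, although the labels also call the cells B lymphoblasts. Summed over their lists, T cell, myeloid, epithelial and erythroid markers stayed at or below 12.8 CPM in every library.

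The mitotic genes fell with TAK-981 in both lines and with Dex in MM1S, and they were lowest in MM1S given both drugs. Added over the 55 members, the level in MM1S was 9380 ± 449 CPM with vehicle (mean ± SD, n = 2), 4533 ± 7.71 with TAK-981, 5075 ± 36.2 with Dex and 2348 ± 17.1 in combo. These sums were 48.3%, 54.1% and 25.03% of the vehicle level. The small SD of the TAK-981 sum hides opposite shifts between its libraries, such as SMC4 at 808 and 680 CPM and MKI67 at 479 and 513. The SD of the members' mean log2 CPM was 0.062 in that group, the largest of the 8 groups. In MM1R the sum was 12016 ± 70.9 CPM with vehicle, 7672 ± 69.9 with TAK-981, 11915 ± 298 with Dex and 7724 ± 89.4 in combo, or 63.8%, 99.2% and 64.3% of vehicle. The members took between 0.24% (MM1S combo) and 1.19% (MM1R Dex) of a library's counts.

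TAK-981 lowered all 55 members in MM1S and 54 of 55 in MM1R, where ASPM, a spindle pole protein, did not pass the test. Each comparison was tested with edgeR's quasi-likelihood test on all 14215 genes, and a gene was called at a Benjamini-Hochberg adjusted p under 0.05. Of all genes tested, 23.7% were called lower after TAK-981 in MM1S and 27.6% in MM1R. On the log2 scale the members had a median change of −1.16 in MM1S (quartiles −1.32 and −1.01) and −0.78 in MM1R (quartiles −0.87 and −0.63), while the median of all genes was 0.037 and 0.0043. The largest adjusted p of a called member was 0.000816 in MM1S and 0.04 in MM1R. In MM1S 42 members were lower by a log2 of 1 or more, as were 4.81% of all genes, and in MM1R 1 member was (CDK1), against 2.4% of all genes.

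Dex lowered 54 of 55 members in MM1S, where 21.5% of all genes were called lower, and the member that did not pass was the phosphatase gene CDC25B. The median log2 fold change was −1.01 (quartiles −1.13 and −0.94) beside 0.011 for all genes, and 29 members were lower by 1 or more, against 5.16% of all genes. In MM1R 0 of 55 members were called after Dex, as were 0% of all genes. At an unadjusted edgeR p under 0.05 the number of members was also 0, beside only 395 of all 14215 genes. Without any change a share of 0.05 would be counted, so the test was strict in MM1R. Its counts of 0 therefore do not show that the members stayed unchanged. DESeq2 called 0 members and 0 of all genes. The members' log2 fold changes in MM1R ran from −0.095 to 0.085 with a median of −0.023, and their 95% intervals lay between −0.36 and 0.32, all above the MM1S median. The line difference of the Dex response, tested directly, was called for 54 of 55 members (15% of all genes were called in that direction), with a median of 0.99, and CDC25B was again the exception at 0.17 (SE 0.15, adjusted p = 0.443).

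**Figure D1:**
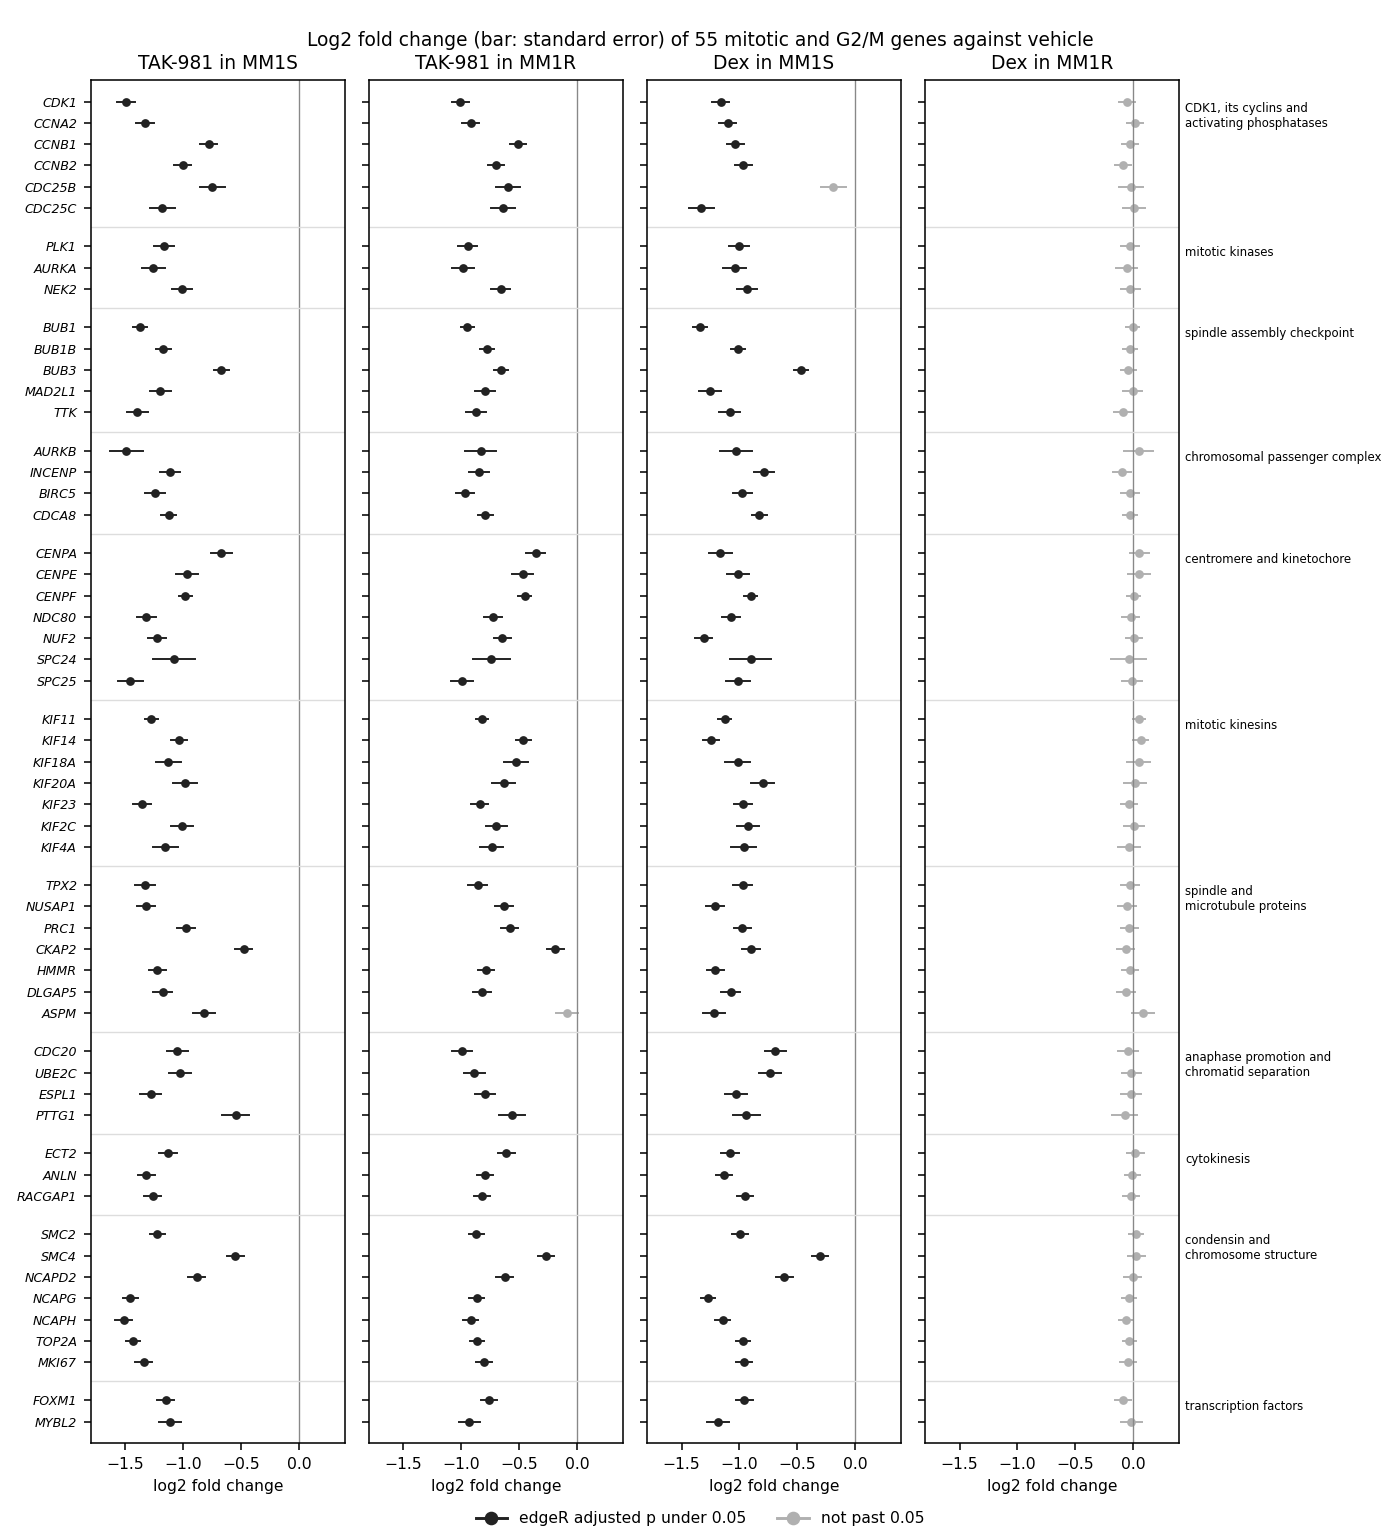
Log2 fold change against the vehicle of the same line for the 55 members, ordered by role, after TAK-981 or Dex in MM1S and MM1R. Points are edgeR estimates, bars their standard errors, black points passed an adjusted p of 0.05 and grey points did not. After Dex the MM1S points sit between −1.34 and −0.19 and the MM1R points between −0.095 and 0.085.

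The members' promoters were searched for the elements known from cell cycle genes. Whether these elements had a part in the changes was not tested. The cell cycle genes homology region (CHR), the site that MuvB contacts, was searched as TTTGAA or TTCGAA, and the CCAAT box, the site of NF-Y, as CCAAT, each on both strands, in the 250 bases before and 50 after each start in RefSeq (GRCh38.p14). The table held 59 promoters for 47 of the 55 members, and BIRC5, FOXM1, AURKA and TPX2 are among those without an entry. A CHR match was present in 38 of the 59 promoters (64.4%), against 16.4% of all 35116 promoters and 12.3% of the 15422 promoters of tested genes. Within 50 bases of the start it was present in 50.8% of the members' promoters and in 5.01% of all promoters. CCAAT was present in 69.5% of the members' promoters and in 34.6% of all promoters. The 46 promoters found for genes on a list of 40 DNA replication genes held a CHR match in 6.52% and CCAAT in 58.7%. In 65 promoters of further mitotic genes that are not members, the shares were close to those of the members. They were 61.5% for a CHR match, 50.8% for one within 50 bases of the start and 66.2% for CCAAT. A CHR and a CCAAT match overlapped in 2 of the members' promoters.

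The windows below show the CHR match nearest the start for the panel genes that held one, since these are the genes whose levels are given by library further on. Each reads 5′ to 3′ on the gene's strand, with the match in capitals:
CDK1: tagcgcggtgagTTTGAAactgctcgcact
PLK1: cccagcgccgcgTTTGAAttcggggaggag
BUB1B: gggaccgttaaaTTTGAAacttggcggcta
CDC20: cgacggttggatTTTGAAggagccaatagg
MKI67: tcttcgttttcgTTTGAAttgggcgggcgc
TOP2A: ctgattggtttaTTCAAAcaaaccccggcc

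In GRCh38.p14 the windows lie at chr10:60778453-60778482 (CDK1, plus strand), chr16:23678848-23678877 (PLK1, plus), chr15:40161034-40161063 (BUB1B, plus), chr1:43358904-43358933 (CDC20, plus), chr10:128126435-128126464 (MKI67, minus) and chr17:40418030-40418059 (TOP2A, minus). The first base of the match is 13 bases before the start in CDK1, 29 in PLK1, 23 in BUB1B, 65 in CDC20, 29 in MKI67 and 151 in TOP2A, where it reads as the reverse complement. The windows of CDC20, TOP2A and MKI67 also hold a CCAAT box, read as ccaat in CDC20 and as its reverse complement attgg in the other two, and in MKI67 it shares a base with the CHR match. No match to these letters was found in the promoters of CCNA2, CCNB1, AURKB and MYBL2. For TAK-981 in MM1S the median change on the log2 scale was −1.18 in the 35 members with a CHR match and −1.01 in the 12 without. After Dex in MM1S the medians were −1.02 and −0.97. The range of the members without a match, from −1.52 to −0.48 after TAK-981, overlapped widely with that of the members with one, from −1.50 to −0.55.

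CDK1, its cyclins and its activating phosphatases all fell with TAK-981 in both lines (6 of 6, median −1.09 in MM1S and −0.67 in MM1R). CDK1, the kinase that drives entry into mitosis (chr10:62538089-62554610, plus strand; gene positions are hg19), was at 132 and 118 CPM with vehicle, 46.8 and 41.6 with TAK-981, 56.3 and 55.4 with Dex and 14.6 and 13.4 in combo in MM1S. In MM1R it was at 145 and 144 CPM with vehicle, 76.5 and 67.2 with TAK-981, 137 and 142 with Dex and 73.1 and 71.9 in combo. The 4 groups of MM1S did not overlap and stood in the order vehicle, Dex, TAK-981 and combo, while in MM1R the TAK-981 and combo libraries overlapped. Its log2 fold change after TAK-981 was −1.50 (SE 0.076) in MM1S and −1.01 (SE 0.073) in MM1R, and after Dex in MM1S −1.16 (SE 0.075). CCNA2, cyclin A2, which partners CDK2 in S phase and CDK1 in G2 (chr4:122737599-122745088, minus strand), was at 111 and 100.4 CPM with vehicle, 39.1 and 44.9 with TAK-981, 47.5 and 51.1 with Dex and 17.5 and 15.8 in combo in MM1S and at 126 and 127 CPM with vehicle, 68.8 and 65.3 with TAK-981, 126 and 129.9 with Dex and 71.2 and 68.3 in combo in MM1R. Its groups in MM1S stood in the same order as those of CDK1, with −1.33 (SE 0.075) after TAK-981 and −1.10 (SE 0.074) after Dex in MM1S, and −0.92 (SE 0.072) after TAK-981 in MM1R. CCNB1, cyclin B1 (chr5:68462837-68474070, plus strand), was at 139 and 128 CPM with vehicle, 75.003 and 80.9 with TAK-981, 62.3 and 68.2 with Dex and 29.3 and 27.3 in combo in MM1S. Its levels in MM1R were 169 and 167 CPM with vehicle, 118 and 118 with TAK-981, 154 and 175 with Dex and 117 and 122 in combo. In MM1S its Dex libraries lay below its TAK-981 libraries, and its log2 fold change was −0.78 (SE 0.072) after TAK-981 and −1.03 (SE 0.073) after Dex.

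The phosphatases CDC25B and CDC25C, which remove the inhibitory phosphates from CDK1, had the smallest and one of the largest Dex responses of the 55 members. CDC25B was at 133 and 132 CPM with vehicle, 66.3 and 91.4 with TAK-981, 109 and 124 with Dex and 60.1 and 67.4 in combo in MM1S. It was at 197 and 211 CPM with vehicle, 135 and 134 with TAK-981, 189.6 and 213 with Dex and 138 and 143 in combo in MM1R. TAK-981 moved it by −0.75 (SE 0.11, adjusted p = 2.81e-05) in MM1S, and its log2 fold change after Dex was −0.19 (SE 0.11, adjusted p = 0.182), which did not pass the test although both Dex libraries lay below both vehicle libraries. CDC25C was at 18.7 and 19.99 CPM with vehicle, 8.35 and 8.70 with TAK-981, 6.997 and 8.37 with Dex and 2.91 and 2.20 in combo in MM1S, with TAK-981 and Dex libraries that overlapped. In MM1R its levels were 20.5 and 20.5 CPM with vehicle, 13.6 and 12.7 with TAK-981, 20.8 and 20.3 with Dex and 14.4 and 12.9 in combo. Its log2 fold change after Dex in MM1S was −1.33 (SE 0.11), second to that of BUB1 among the members. CCNB2, cyclin B2, was called lower in all 3 comparisons, at −1.004 (TAK-981 in MM1S), −0.70 (TAK-981 in MM1R) and −0.96 (Dex in MM1S).

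The 3 mitotic kinases and the 5 checkpoint genes were called lower after TAK-981 in both lines and after Dex in MM1S. PLK1, the polo-like kinase that acts at centrosomes and kinetochores (chr16:23690201-23701688, plus strand), was at 103 and 99.5 CPM with vehicle, 40.4 and 49.9 with TAK-981, 50.01 and 50.9 with Dex and 13.4 and 15.1 in combo in MM1S and at 151 and 156 CPM with vehicle, 79.9 and 79.5 with TAK-981, 142 and 159 with Dex and 74.8 and 81.5 in combo in MM1R. Its MM1S combo libraries held 14.1% of the vehicle mean. The log2 fold change after TAK-981 was −1.16 (SE 0.085) in MM1S and −0.94 (SE 0.081) in MM1R. AURKA, the centrosome kinase of spindle assembly, moved by −1.26 and −0.99, and NEK2, a centrosome separation kinase, by −1.01 and −0.66. BUB1, a checkpoint kinase at the kinetochore, was at 306 and 277 CPM with vehicle, 115 and 111 with TAK-981, 119 and 112 with Dex and 40.1 and 41.5 in combo in MM1S. In MM1R it was at 374 and 389 CPM with vehicle, 202 and 194 with TAK-981, 377 and 384 with Dex and 206 and 211 in combo. It had the lowest log2 fold change of the members after Dex in MM1S, −1.34 (SE 0.061), which was near its value after TAK-981, −1.37 (SE 0.061), and its TAK-981 and Dex libraries overlapped.

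BUB1B, the checkpoint protein BUBR1 (chr15:40453210-40513337, plus strand), was at 167 and 149 CPM with vehicle, 69.5 and 70.5 with TAK-981, 78.8 and 77.9 with Dex and 27.004 and 27.2 in combo in MM1S and 208 and 205 CPM with vehicle, 120.5 and 120.04 with TAK-981, 198 and 207 with Dex and 125 and 131 in combo in MM1R. Its log2 fold change after TAK-981 was −1.17 (SE 0.063) in MM1S and −0.78 (SE 0.061) in MM1R. BUB3, the partner that brings BUB1 and BUBR1 to kinetochores and that also acts outside mitosis, was at 209 and 190.4 CPM with vehicle, 130.2 and 121 with TAK-981, 140.3 and 148 with Dex and 107 and 103 in combo in MM1S. Its levels in MM1R were 211 and 215 CPM with vehicle, 133 and 138 with TAK-981, 202 and 212 with Dex and 139 and 136 in combo. It was among the members that moved least after Dex in MM1S, at −0.47 (SE 0.063), and its TAK-981 response was nearly equal in the lines, at −0.67 (SE 0.063) in MM1S and −0.65 (SE 0.063) in MM1R. MAD2L1, which binds CDC20 while the checkpoint is on, and TTK, the kinase MPS1 at the head of the checkpoint, moved by −1.20 and −1.40 after TAK-981 in MM1S and by −1.25 and −1.08 after Dex.

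The chromosomal passenger complex, which corrects faulty attachments to the spindle, fell as a whole (4 of 4 after TAK-981 in each line and after Dex in MM1S). AURKB, its kinase (chr17:8108049-8113944, minus strand), was at 47.4 and 49.3 CPM with vehicle, 14.1 and 20.3 with TAK-981, 21.5 and 25.9 with Dex and 4.58 and 6.54 in combo in MM1S. In MM1R it was at 42.8 and 47.7 CPM with vehicle, 25.3 and 25.6 with TAK-981, 45.4 and 48.1 with Dex and 24.9 and 29.3 in combo, so the vehicle libraries of the lines overlapped. Its log2 fold change after TAK-981 was −1.49 (SE 0.14) in MM1S and −0.83 (SE 0.13) in MM1R, with standard errors above those of most members. BIRC5, survivin, the subunit that reads the centromere mark (chr17:76210277-76221716, plus strand), was at 90.4 and 89.05 CPM with vehicle, 33.97 and 41.8 with TAK-981, 43.8 and 47.5 with Dex and 12.02 and 13.3 in combo in MM1S and at 131 and 137 CPM with vehicle, 67.3 and 69.8 with TAK-981, 125 and 137 with Dex and 67.2 and 68.6 in combo in MM1R. It moved by −1.24 (SE 0.083) and −0.96 (SE 0.079) after TAK-981 and by −0.97 (SE 0.082) after Dex in MM1S. INCENP, the scaffold, and CDCA8, borealin, moved by −1.12 and −1.12 after TAK-981 in MM1S.

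The 7 centromere and kinetochore genes were likewise called lower in these 3 comparisons, with medians of −1.08, −0.64 and −1.01. SPC25, a subunit of the NDC80 complex that holds microtubule ends, was at 23.02 and 22.5 CPM with vehicle, 7.37 and 9.21 with TAK-981, 11.6 and 10.99 with Dex and 2.04 and 2.47 in combo in MM1S. It was at 32.6 and 33.4 CPM with vehicle, 16.5 and 16.6 with TAK-981, 33.4 and 32.3 with Dex and 14.9 and 17.1 in combo in MM1R. The combo libraries of MM1S held 33 and 45 counts of it, and the log2 fold change after TAK-981 was −1.46 (SE 0.11) in MM1S and −0.99 (SE 0.094) in MM1R. NUF2, another subunit of that complex, was at 72.3 and 67.2 CPM with vehicle, 31.1 and 28.6 with TAK-981, 28.7 and 27.7 with Dex and 12.1 and 10.1 in combo in MM1S and at 88.02 and 86.05 CPM with vehicle, 56.3 and 55.2 with TAK-981, 85.7 and 89.2 with Dex and 56.9 and 57.2 in combo in MM1R. Its TAK-981 and Dex libraries overlapped in MM1S, with log2 fold changes of −1.23 (SE 0.075) and −1.31 (SE 0.075). The centromeric histone CENPA moved least with TAK-981 in this group, at −0.67 in MM1S and −0.36 in MM1R, but moved by −1.16 after Dex in MM1S. CENPF, a large protein of the outer kinetochore, and SPC24, the partner of SPC25, moved by −0.98 and −1.08 after TAK-981 in MM1S and by −0.45 and −0.74 in MM1R.

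The 7 mitotic kinesins, motors that build the spindle and move chromosomes, all fell, with medians of −1.13 (TAK-981 in MM1S), −0.70 (TAK-981 in MM1R) and −0.97 (Dex in MM1S). KIF23, a motor of the central spindle, had the lowest value after TAK-981 in MM1S (−1.36), and KIF14, which acts in cytokinesis, the lowest after Dex (−1.25). KIF11, the motor that pushes spindle poles apart, KIF18A, which dampens chromosome movement, and KIF20A, a motor of the central spindle, moved by −1.27, −1.13 and −0.98 after TAK-981 in MM1S. Of the 7 spindle and microtubule proteins, 7 were called lower after TAK-981 in MM1S, 6 in MM1R and 7 after Dex in MM1S. NUSAP1, which bundles spindle microtubules near chromatin, was at 183 and 169 CPM with vehicle, 77.3 and 63.9 with TAK-981, 80.02 and 72.2 with Dex and 31.3 and 34.1 in combo in MM1S and at 237 and 235 CPM with vehicle, 155 and 149.6 with TAK-981, 227 and 228 with Dex and 151 and 151 in combo in MM1R. It moved by −1.32 (SE 0.079) after TAK-981 in MM1S and by −0.63 (SE 0.076) in MM1R. CKAP2, a microtubule stabilizer, was at 165 and 153 CPM with vehicle, 124 and 104 with TAK-981, 88.2 and 82.3 with Dex and 65.4 and 59.9 in combo in MM1S. It was at 159 and 159 CPM with vehicle, 140.1 and 140.04 with TAK-981, 150.1 and 155 with Dex and 140.4 and 141 in combo in MM1R. In MM1S its TAK-981 libraries lay above its Dex libraries, with −0.48 (SE 0.075) after TAK-981, the value nearest 0 among the members, and −0.90 (SE 0.076) after Dex. ASPM, which organizes spindle poles (chr1:197053257-197115824, minus strand), was at 654 and 584 CPM with vehicle, 386 and 316 with TAK-981, 288 and 244 with Dex and 185 and 170.3 in combo in MM1S. Its levels in MM1R were 666 and 638 CPM with vehicle, 633 and 596 with TAK-981, 739 and 644 with Dex and 618 and 591 in combo. It moved by −0.82 (SE 0.097) after TAK-981 in MM1S, and in MM1R its log2 fold change was −0.086 (SE 0.096, adjusted p = 0.473). TPX2, HMMR and DLGAP5, which act in spindle assembly, and PRC1 of the central spindle were called lower in all 3 comparisons.

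Among the genes of anaphase, CDC20, the activator that turns the anaphase-promoting complex on (chr1:43824626-43828873, plus strand), was at 55.9 and 51.98 CPM with vehicle, 23.2 and 28.9 with TAK-981, 32.3 and 34.6 with Dex and 11.3 and 12.2 in combo in MM1S. It was at 82.4 and 86.5 CPM with vehicle, 42.8 and 41.97 with TAK-981, 76.7 and 87.2 with Dex and 42.5 and 44.4 in combo in MM1R. Its log2 fold changes after TAK-981 were −1.05 (SE 0.094) in MM1S and −0.99 (SE 0.088) in MM1R, and the Dex response in MM1S was −0.69 (SE 0.091). PTTG1, securin, which holds separase in check until anaphase, was at 48.6 and 47.1 CPM with vehicle, 29.3 and 36.3 with TAK-981, 22.6 and 27.2 with Dex and 11.3 and 10.4 in combo in MM1S and at 67.9 and 65.1 CPM with vehicle, 41.9 and 48.3 with TAK-981, 57.6 and 68.8 with Dex and 45.6 and 52.1 in combo in MM1R. It moved less with TAK-981 (−0.55 (SE 0.12) in MM1S, −0.56 (SE 0.11) in MM1R) than with Dex in MM1S (−0.94 (SE 0.12)), and its TAK-981 libraries lay above its Dex libraries. PTTG1 and KIF4A have near-identical copies elsewhere in the genome, so reads may be split between copies and their values are uncertain. ESPL1, separase, and UBE2C, the ubiquitin-conjugating enzyme of the complex, moved by −1.28 and −1.03 after TAK-981 in MM1S. The cytokinesis genes ECT2, ANLN and RACGAP1, which set up the cleavage furrow, fell in all 3 comparisons (3 of 3), at −1.13, −1.32 and −1.26 after TAK-981 in MM1S.

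Condensin, topoisomerase and Ki-67, which shape mitotic chromosomes, were called lower in the same 3 comparisons (7 of 7). NCAPH, the kleisin subunit of condensin I, was at 72.6 and 67.1 CPM with vehicle, 23.7 and 25.2 with TAK-981, 31.4 and 31.8 with Dex and 9.29 and 10.01 in combo in MM1S. It was at 95.1 and 93.8 CPM with vehicle, 49.1 and 50.8 with TAK-981, 87.8 and 93.4 with Dex and 50.8 and 50.3 in combo in MM1R. Its log2 fold change after TAK-981 in MM1S, −1.52 (SE 0.071), was the lowest of the 55 members. SMC4, an ATPase shared by both condensins, was at 1129 and 1047 CPM with vehicle, 808 and 680.3 with TAK-981, 924 and 838 with Dex and 590.3 and 573 in combo in MM1S and at 1166 and 1158 CPM with vehicle, 985 and 947 with TAK-981, 1217 and 1155 with Dex and 959 and 948 in combo in MM1R. It was called lower with −0.55 (SE 0.071) after TAK-981 and −0.30 (SE 0.070) after Dex in MM1S, and it kept 53.4% of its vehicle level in MM1S combo, the most of any member. SMC2, its ATPase partner, moved by −1.22 after TAK-981 and by −0.99 after Dex in MM1S. TOP2A, the topoisomerase that untangles sister chromatids (chr17:38544773-38574202, minus strand), was at 621 and 555 CPM with vehicle, 215 and 221 with TAK-981, 297 and 303 with Dex and 86.6 and 85.3 in combo in MM1S. It was at 779 and 773 CPM with vehicle, 432 and 419.9 with TAK-981, 734 and 783 with Dex and 415 and 434 in combo in MM1R. It moved by −1.43 (SE 0.060) and −0.87 (SE 0.059) after TAK-981. MKI67, the proliferation marker Ki-67 that coats mitotic chromosomes (chr10:129894925-129924468, minus strand), was at 1289.6 and 1228 CPM with vehicle, 479 and 513 with TAK-981, 656 and 636 with Dex and 226 and 272 in combo in MM1S. Its levels in MM1R were 1943 and 1982 CPM with vehicle, 1120.2 and 1124 with TAK-981, 1839.6 and 1971 with Dex and 1092 and 1124 in combo. It moved by −1.34 (SE 0.070) and −0.81 (SE 0.069) after TAK-981 and by −0.96 (SE 0.070) after Dex in MM1S, and the 4 groups of MM1S did not overlap for either gene.

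FOXM1 and MYBL2, the transcription factors that drive many of these genes in G2, fell with them. FOXM1 (chr12:2966847-2986321, minus strand) was at 111 and 111 CPM with vehicle, 45.6 and 54.1 with TAK-981, 59.3 and 54.9 with Dex and 17.9 and 19.7 in combo in MM1S. It was at 187 and 183 CPM with vehicle, 108 and 111 with TAK-981, 173 and 176 with Dex and 110.5 and 116 in combo in MM1R. Its log2 fold change was −1.15 (SE 0.073) after TAK-981 in MM1S, −0.76 (SE 0.069) in MM1R and −0.96 (SE 0.073) after Dex in MM1S. MYBL2, or B-Myb (chr20:42295709-42345122, plus strand), was at 163 and 172 CPM with vehicle, 68.2 and 86.8 with TAK-981, 69.1 and 78.7 with Dex and 22.4 and 24.5 in combo in MM1S and at 276 and 289 CPM with vehicle, 147 and 149 with TAK-981, 260.4 and 298 with Dex and 151 and 159.8 in combo in MM1R. It moved by −1.11 (SE 0.096), −0.93 (SE 0.093) and −1.18 (SE 0.096) in the same 3 comparisons. In MM1S its TAK-981 and Dex libraries overlapped.

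**Figure D2:**
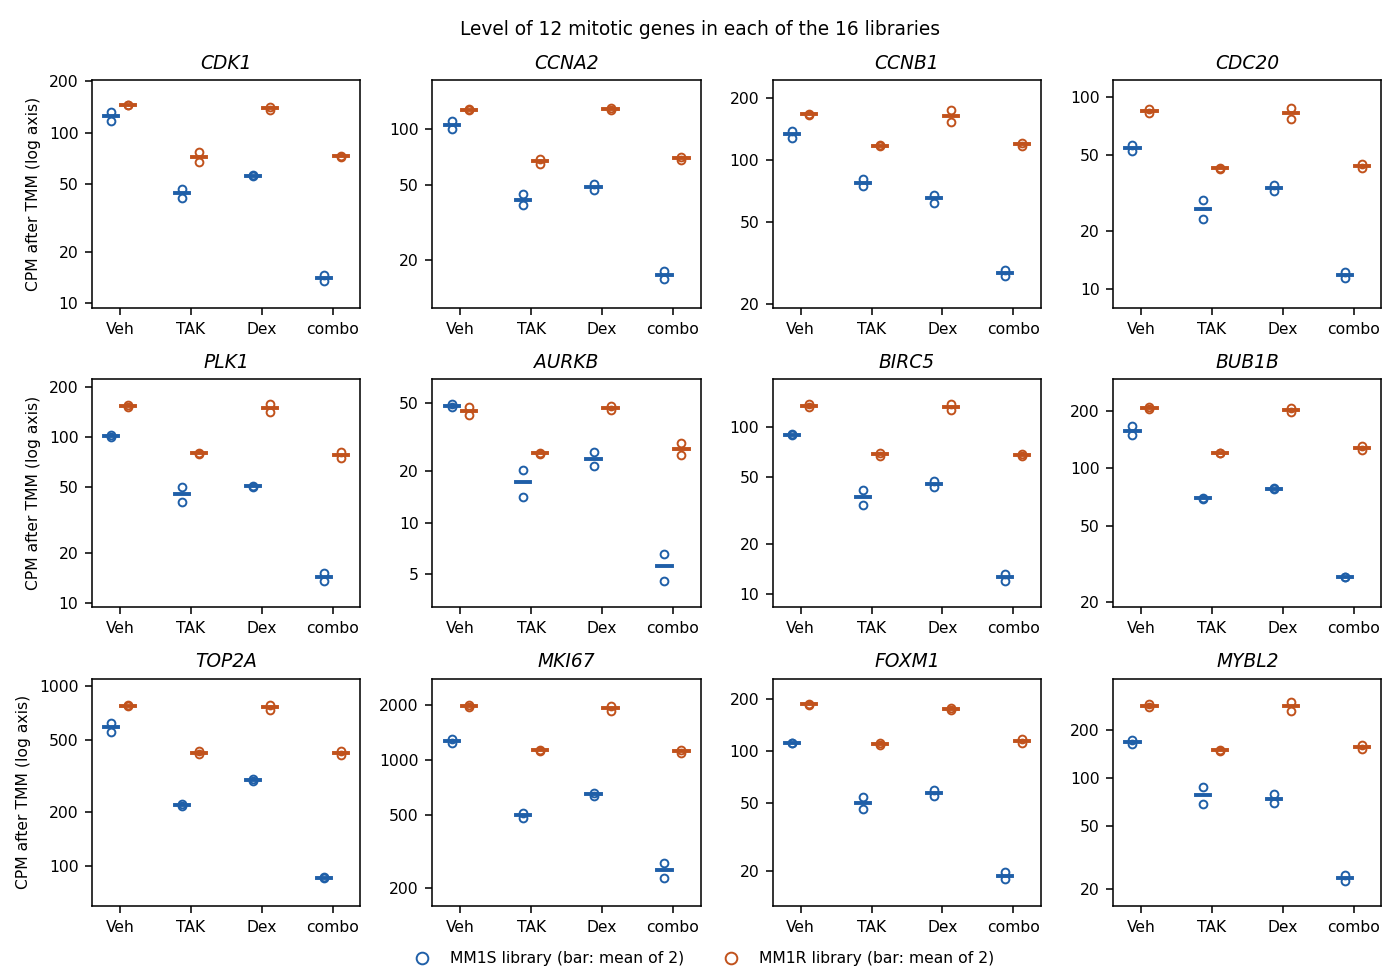
CPM after TMM scaling, on log axes, of 12 members in each of the 16 libraries. Open circles are libraries, bars the means of 2, blue MM1S and orange MM1R. In MM1S the combo libraries sit lowest for all 12 genes, for CDK1 at 14.6 and 13.4 CPM, and in MM1R the Dex libraries sit near vehicle and the combo libraries near TAK-981.

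Some members overlap other transcribed genes, and the sources do not say whether counting used strand. Of the 55, 11 overlap a gene with at least 100 counts in some library, 3 of them on the same strand and 8 on the opposite one. The largest is SCARNA10, a small RNA gene inside NCAPD2 with up to 12889 counts. Its part in the NCAPD2 value (−0.88 after TAK-981 in MM1S) was not tested.

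With vehicle, most members were higher in MM1R than in MM1S. The test called 45 of 55 higher, where 25.6% of all genes were called higher, and the median log2 difference was 0.35 beside 0.0067 for all genes. MYBL2 (0.75, SE 0.092, adjusted p = 4.57e-06), FOXM1 (0.74, SE 0.069, adjusted p = 1.11e-07) and CDCA8 (0.67, SE 0.060, adjusted p = 6.79e-08) differed most. AURKB (−0.096), CKAP2 (0.0057), CENPE (0.057) and ASPM (0.075) were among the 10 that did not pass. At the level of counts per kilobase, SMC4 was the highest member in vehicle, at 178 ± 9.47 CPM per kb in MM1S and 190.4 ± 1.01 in MM1R (mean ± SD, n = 2), and TOP2A (102 ± 8.13 and 135 ± 0.757) and MKI67 (101 ± 3.49 and 157 ± 2.20) followed. TOP2A and MKI67 did not differ beyond their spread in MM1S. The lowest was CDC25C, at 6.53 ± 0.320 and 6.93 ± 0.0158 CPM per kb.

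The TAK-981 response of 30 members was smaller in MM1R than in MM1S by the test of the line difference, which had a median of 0.41 over all 55. Of all genes, 3.19% were called in that direction. ASPM (0.73, SE 0.14, adjusted p = 0.00552), NUSAP1 (0.69, SE 0.11, adjusted p = 0.00132) and AURKB (0.66, SE 0.19, adjusted p = 0.0664) had the largest differences, and the last did not pass. The log2 fold change was nearer 0 in MM1R for 54 of 55 members, and PTTG1 (−0.014), the exception, BUB3 (0.016) and CDC20 (0.055) had the smallest. By role, the line difference passed for 5 of 7 spindle proteins, 5 of 7 chromosome structure genes and 3 of 3 cytokinesis genes, but for 0 of 3 mitotic kinases and 1 of 4 anaphase genes. Across the 55 members, which share libraries and are not independent, the responses in the lines had Pearson's r of 0.757 and Spearman's rho of 0.714. The count of 30 moved when single libraries were left out, and so did the count over all genes. The members' median stayed between 0.35 and 0.46.

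**Figure D3:**
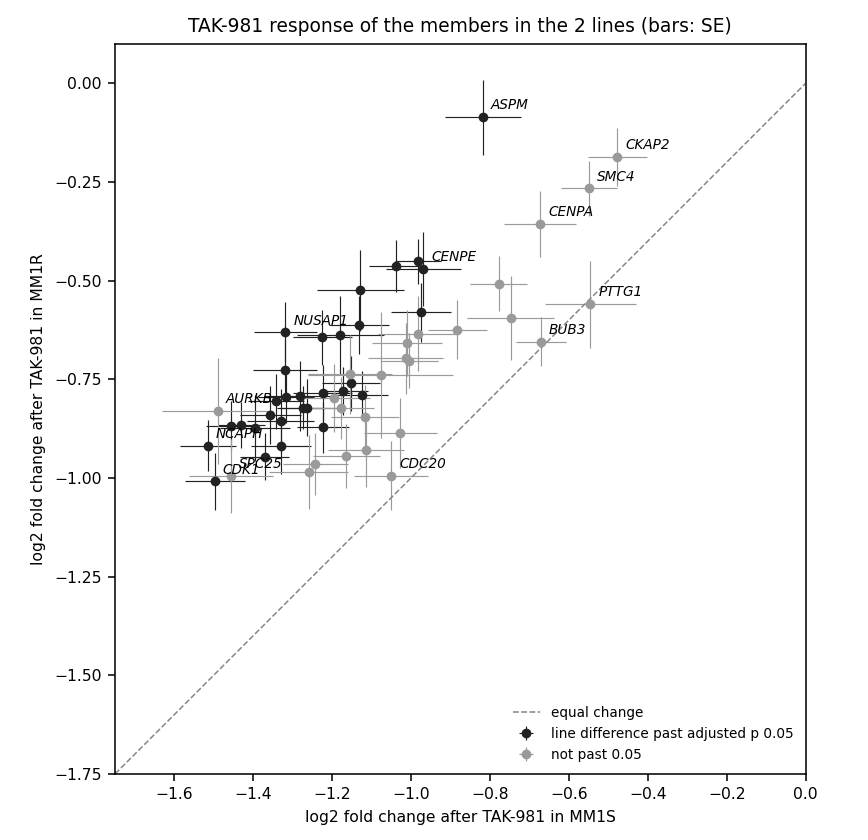
Log2 fold change after TAK-981 in MM1S (horizontal) and in MM1R (vertical) for the 55 members, with standard errors as bars and equal change as the dashed line. Black points passed the test of the line difference, and 54 of the 55 points lie above the line, with ASPM farthest from it.

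In MM1S each drug lowered the members further on top of the other. Dex added to TAK-981 was called lower for 55 of 55 members (median −1.34), where 20.6% of all genes were called lower, and TAK-981 added to Dex for 55 of 55 (median −1.46), where 25.4% were. The lowest values of Dex on TAK-981 were those of SPC25 (−1.87, SE 0.16, adjusted p = 3.26e-08) and NCAPG, a condensin I subunit (−1.77, SE 0.073, adjusted p = 1.29e-12), and the highest those of BUB3 (−0.26, SE 0.064, adjusted p = 0.00438) and CDC25B (−0.31, SE 0.11, adjusted p = 0.0457). Median levels over the members were 44.6% of vehicle with TAK-981, 49.7% with Dex and 18.3% in combo, beside a median of 21.5% for the product of the single-drug levels. In MM1R, TAK-981 added to Dex was called lower for 53 of 55 members (median −0.68), where 25.3% of all genes were, and CKAP2 and ASPM did not pass. Dex added to TAK-981 in MM1R was called for 0 of 55 members and 0% of all genes. The count of members at an unadjusted edgeR p under 0.05 was 0, beside only 214 of all 14215 genes, again below a share of 0.05. DESeq2 called 0 members and 0 of all genes, and the members' 95% intervals lay between −0.38 and 0.39.

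For 21 members the combo level in MM1S was lower than the product of the single-drug levels by the test of the TAK-981 by Dex interaction, where 9.48% of all genes were. The median interaction was −0.28 beside −0.029 for all genes. SPC25 (−0.85, SE 0.20, adjusted p = 0.00713), UBE2C (−0.83, SE 0.15, adjusted p = 0.00108), KIF2C, a microtubule-depolymerizing kinesin (−0.73, SE 0.15, adjusted p = 0.00356), and PTTG1 (−0.66, SE 0.18, adjusted p = 0.0229) had the lowest values. The others called were PLK1, BIRC5, MYBL2, KIF4A, CDK1, NCAPG, KIF23, CDCA8, CDC20, FOXM1, NEK2, TPX2, CCNB1, NDC80, DLGAP5, TOP2A and BUB1B. MKI67, at −0.031 (SE 0.098), did not pass, and the highest value was that of CENPE, a kinetochore kinesin (0.39, SE 0.14, adjusted p = 0.0718). The anaphase genes passed for 3 of 4 members and both transcription factors passed, while the cytokinesis genes passed for 0 of 3. This count also moved when single libraries were left out, as did that over all genes, while the members' median stayed between −0.35 and −0.23. It was 6 in a fit of the groups compared only, where 487 of all genes were called lower, against 1348 in the main fit. In MM1R the interaction was called for 0 of 55 members and 0% of all genes. At an unadjusted edgeR p under 0.05 it was 0 members, beside only 400 of all 14215 genes, again below a share of 0.05. DESeq2 called 0 members and 0 of all genes.

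**Figure D4:**
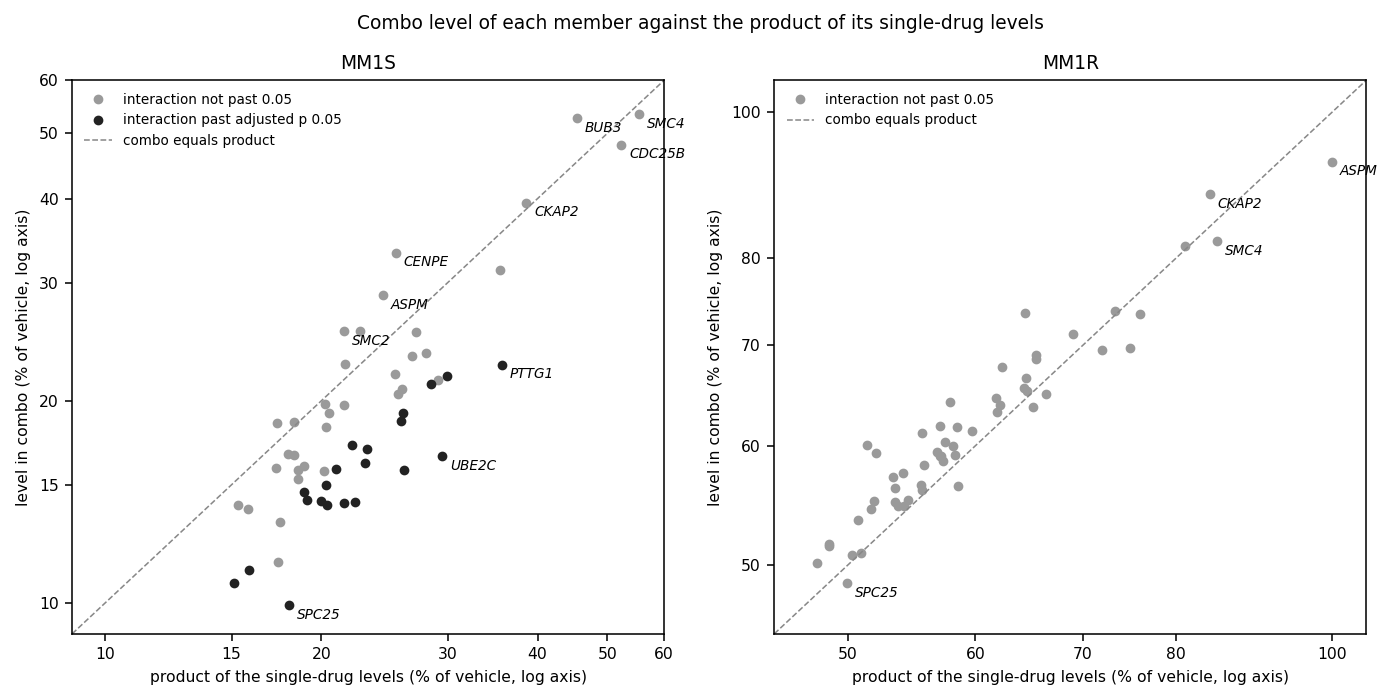
Level of each member in combo (vertical) against the product of its levels after TAK-981 and after Dex (horizontal), both as a percentage of vehicle on log axes, in MM1S and MM1R. Black points passed the interaction test and the dashed line marks equality. In MM1S the black points lie below the line, with SPC25 at 9.92% in combo, and in MM1R no point passed.

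Other cell cycle genes, on lists that hold no member, gave a background for these values. Of 72 further mitotic genes, 67 were called lower and 1 higher after TAK-981 in MM1S (median −1.07), 64 and 1 in MM1R (median −0.70), and 69 and 1 after Dex in MM1S (median −0.88). MELK, a mitotic kinase, and SKA1, a kinetochore protein, were lowest after TAK-981 in MM1S, at −1.69 (SE 0.076, adjusted p = 4.03e-12) and −1.59 (SE 0.077, adjusted p = 1.03e-11). The gene called higher after Dex was PMF1, a kinetochore protein, at 0.45 (SE 0.11, adjusted p = 0.00262) and at 0.18 (SE 0.11, adjusted p = 0.202) after TAK-981 in MM1S. The gene called higher after TAK-981 in both lines was NCAPD3, which encodes the condensin II subunit that corresponds to the member NCAPD2 of condensin I. NCAPD3 was at 189.8 and 177 CPM with vehicle, 538 and 493 with TAK-981, 111 and 113 with Dex and 296 and 308 in combo in MM1S and at 236 and 236 CPM with vehicle, 509 and 496 with TAK-981, 224 and 238 with Dex and 496 and 490.3 in combo in MM1R. It rose by 1.49 (SE 0.060, adjusted p = 9.71e-13) after TAK-981 in MM1S and by 1.09 (SE 0.059, adjusted p = 5.73e-11) in MM1R, and it fell with Dex in MM1S (−0.71, SE 0.060, adjusted p = 2.08e-08). The other two non-SMC subunits of condensin II, NCAPG2 and NCAPH2, named after their values were seen, were at −1.49 (SE 0.074, adjusted p = 1.22e-11) and −0.73 (SE 0.092, adjusted p = 2.77e-06) after TAK-981 in MM1S.

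All 40 DNA replication genes were called lower after TAK-981 in both lines and after Dex in MM1S. Their median after TAK-981 was −1.42 in MM1S and −1.06 in MM1R, and after Dex in MM1S −0.86. MCM4, a subunit of the replicative helicase, and UHRF1, which carries DNA methylation through replication, were lowest after TAK-981 in MM1S at −1.96 (SE 0.074, adjusted p = 5.07e-13) and −1.86 (SE 0.11, adjusted p = 1.25e-10), and RPA1 and RPA2, which bind single-stranded DNA, were highest at −0.55 (SE 0.064, adjusted p = 1.01e-06) and −0.53 (SE 0.070, adjusted p = 5.66e-06). Dex added to TAK-981 in MM1S lowered 34 of the 40, with a median of −0.87 beside −1.34 for the mitotic members.

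The subunits of the anaphase-promoting complex, which is present through the cell cycle, were listed with its activator FZR1 and its enzyme UBE2S, which are not subunits. This list had medians nearer 0. Of 14 tested, 6 were called lower and 3 higher after TAK-981 in MM1S (median −0.17), and 2 lower and 3 higher after Dex (median −0.039). Of all 14215 genes, 3374 were called lower and 3586 higher after TAK-981 in MM1S, and 3063 lower and 2954 higher after Dex. With lists this short, such counts do not set these subunits, or those of MuvB and DREAM below, apart from all genes. UBE2S, its chain-extending enzyme, and ANAPC1 were lowest after TAK-981 in MM1S at −0.69 (SE 0.16, adjusted p = 0.00204) and −0.52 (SE 0.073, adjusted p = 1.09e-05), and ANAPC16 and ANAPC2 were highest at 0.25 (SE 0.080, adjusted p = 0.0141) and 0.29 (SE 0.083, adjusted p = 0.00812). Of the 11 subunits of MuvB and of the repressive DREAM complex built on it, 5 were called lower and 2 higher (median −0.12). LIN9, a MuvB subunit, and TFDP1, the partner of E2F factors, were lowest at −0.87 (SE 0.11, adjusted p = 1.62e-06) and −0.87 (SE 0.068, adjusted p = 5.76e-09). RBL2, the pocket protein p130, was at 0.26 (SE 0.052, adjusted p = 0.000349) and E2F5, a repressive E2F, at 0.94 (SE 0.12, adjusted p = 3.37e-06), and after Dex in MM1S E2F5 was at −0.38 (SE 0.13, adjusted p = 0.0281).

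**Figure D5:**
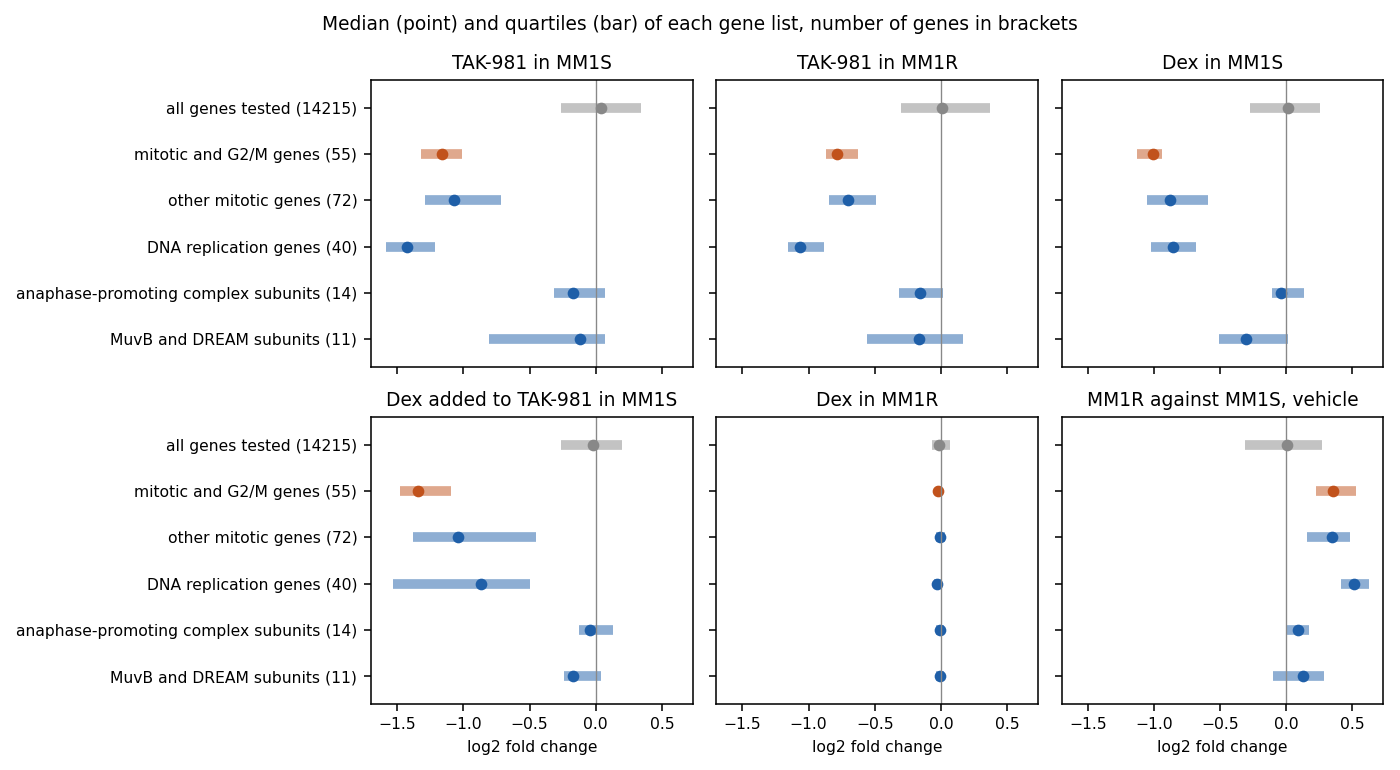
Median (point) and quartiles (bar) of the log2 fold change of all genes tested, the 55 members and 4 other gene lists in 6 comparisons. The members' median is −1.16 after TAK-981 and −1.34 for Dex added to TAK-981 in MM1S, where that of the DNA replication genes is −1.42 and −0.87.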

How the data were processed

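The authors deposited whole-number read counts per gene and library, without normalization, from Ribo-Zero total RNA-seq. The submitters' processing notes name bcl2fastq 2.18.0.12, STAR 2.6.0, HTSeq 0.6.0, edgeR 3.28.1 and the build hg19. The annotation release and the use of strand in counting are not given in the sources used here. The 55 members, the role groups and the other lists were chosen with earlier results of these data known, so their counts are descriptions. Groups came from the sample labels, with 2 libraries each.

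Genes were kept with edgeR's filterByExpr (14215 of 23354), scaled with TMM, and fitted with 1 term per group over all 16 libraries (robust quasi-likelihood fit, 8 residual degrees of freedom). Contrasts were tested with the F test, Benjamini-Hochberg adjusted over all genes, at 0.05. Adjusted p-values are edgeR's unless another tool is named. SE is the standard error of the log2 fold change implied by the F test. It is the absolute log2 fold change divided by the square root of F and was not estimated by the fit itself. The 95% intervals use this SE and the fit's t quantiles. Per-kb values divide CPM by the gene length in the deposited table. Members were described by role. Per-library values were given for a panel of 12 and for the 3 highest and 3 lowest members after TAK-981 in each line, after Dex in MM1S and in the line difference after TAK-981. From the other lists, the 2 highest and 2 lowest after TAK-981 in MM1S were named.

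Alternatives were DESeq2, RLE factors, no scaling beyond library size, no filter, fits restricted to the groups of a comparison, a replicate block, a minimum change of 1 on the log2 scale, and fits without each library in turn. On simulated counts for TAK-981 in MM1S (14111 genes) the fit called 95% of 100 genes changed 1.5-fold and 98% of 100 changed 2-fold, with 22 unchanged genes called. The simulation drew genes independently with the dispersions of this same fit, and the changed genes came from those with higher counts. It therefore checks that the code recovers such changes and cannot test these assumptions. The work used edgeR 4.0.16, DESeq2 1.42.0 and limma 3.58.1 in R 4.3.3.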

Additional observations from a re-analysis of the deposited data

Results flagged for a closer look

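The 2 lines differed in their response, by a test of the difference itself (the interaction of line and drug in the edgeR fit). For TAK-981 the log2 fold change was higher in MM1R for 30 members past the threshold, among them CDK1 (0.49), CCNA2 (0.41), BUB1B (0.39), TOP2A (0.56), MKI67 (0.54) and FOXM1 (0.39) of the panel of 12. For Dex it was higher in MM1R for 54 members. The panel's values were CDK1 1.11, CCNA2 1.11, CCNB1 1.01, CDC20 0.65, PLK1 0.98, AURKB 1.08, BIRC5 0.95, BUB1B 0.98, TOP2A 0.94, MKI67 0.92, FOXM1 0.87 and MYBL2 1.17, on the log2 scale. With 2 libraries per group, no group was large enough to test a single library for standing apart. The duplicates did not agree equally well in all groups. Over the genes tested, their chi-square per degree of freedom, a measure of spread beyond counting noise, was 22.58 for MM1S TAK-981 and 20.43 for MM1S Dex. In the other groups it ran from 2.152 (MM1R combo) to 9.672 (MM1R Dex).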

How the results depend on the processing

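No called result changed its direction under any alternative run. When a call also needed a change of at least 1 on the log2 scale, members called fell to 1 for TAK-981 in MM1R, 29 for Dex in MM1S, 1 for TAK-981 added to Dex in MM1R, 0 for MM1R against MM1S with vehicle, 0 for the line difference after TAK-981, 26 for that after Dex and 0 for the TAK-981 by Dex interaction in MM1S. Of all 14215 genes, this rule called lower 341 for TAK-981 in MM1R and 733 for Dex in MM1S. It called lower 308 for TAK-981 added to Dex in MM1R and 100 for the interaction in MM1S. For the comparisons between lines, where members were higher, all genes were not counted by this rule. That interaction was lower for 6 members in a fit of the groups compared only, and higher for 2 with library size only, 1 without the filter, 1 with DESeq2 and 4 with the replicate block. Over all genes, 487 were called lower in the first of these fits. In the others 1033, 1006, 685 and 1383 were called higher.

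Over the fits that each left out one library, counts of members ran from 53 to 54 (TAK-981 in MM1R), 54 to 55 (Dex in MM1S), 52 to 54 (TAK-981 added to Dex in MM1R), 54 to 55 (Dex added to TAK-981 in MM1S), 34 to 46 (MM1R higher with vehicle), 12 to 38 (line difference after TAK-981), 53 to 54 (line difference after Dex) and 10 to 30 lower and 0 to 3 higher (the interaction in MM1S). A group left with 1 library was assumed to vary like the others.

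Same-numbered libraries were not paired in the main fit, since nothing in the labels ties a number to a culture. Their deviations correlated by between −0.013 and 0.26, the highest being that of MM1S TAK-981 with MM1S Dex. Whether same-numbered libraries share an effect was not tested. With the replicate block, 25 gene results passed that had not and 0 were lost. The line difference after TAK-981 was then called for 43 members and the interaction in MM1S for 27 lower. Over all genes, the block raised these calls from 453 to 1114 and from 1348 to 2196. With 2 libraries per group, small differences such as those of single members between drugs rest on few degrees of freedom, and counts as low as 33 limit SPC25 in MM1S combo.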
